A study of Amia calva with 36 samples.

Results

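Ventral mesoderm of the bowfin foregut was compared between stage 27, when the gas bladder grows out, and stage 25, when it buds. The bowfin (Amia calva) is a ray-finned fish that breathes air with its gas bladder, an organ that arises dorsally from its foregut, while the lungs of other vertebrates arise on the ventral side. Ventral mesoderm is the tissue that wraps the lower side of the foregut tube. In vertebrates the mesoderm around the foregut exchanges signals with the endoderm inside it, and it gives rise to the smooth muscle and connective tissue of the gut wall.

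The libraries were chosen by their labels: 3 from ventral mesoderm at stage 27 and 3 from ventral mesoderm at stage 25, of 36 libraries in all. The series holds 12 groups of 3, from dorsal and ventral endoderm and mesoderm at stages 24 (before budding), 25 and 27. Per the labels, embryos of all groups came from eggs collected in Oneida Lake and were reared at 12.8 °C, the regions were cut by laser capture from transverse sections of 15 µm, and cDNA was amplified before the libraries were built. No group carries a mutation or a treatment. Which embryos gave which library is not in the labels, and the regions were cut from shared sections, so each p-value below covers the variation among the sequenced libraries alone, part of which may be technical. The numbers in the library names run from 1 to 12 at stage 27, from 25 to 42 at stage 25 and from 13 to 24 at stage 24, so that stage and the order these numbers stand for cannot be told apart.

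The deposited table names genes by bowfin identifiers, and 11428 of its 21948 genes also carry a spotted gar Ensembl identifier. It does not pair identifiers with gene symbols, so no gene below is given a name or a role, and marker genes of mesoderm, endoderm, blood or muscle could not be looked up. The label was checked instead with genes chosen in other libraries. At stage 27, dorsal mesoderm and dorsal endoderm differed in 420 of 13780 tested genes (3.05%), 237 of them higher in mesoderm. Those 237 genes took 0.594, 0.621 and 0.634% of the reads of the ventral mesoderm libraries at stage 27, and 0.106, 0.0396 and 0.0424% in ventral endoderm of the same stage. The 2 layers did not overlap at stage 27. At stage 25 the same genes took 0.112, 0.0822 and 0.0345% in ventral mesoderm and 0.0908, 0.0546 and 0.00530% in ventral endoderm, ranges that overlap. At that stage 189 of the 237 had no read in any ventral mesoderm library and 207 had none in ventral endoderm. Of all tested genes, 47.1% and 42.8% had none. The 183 genes higher in dorsal endoderm took 0.276, 0.385 and 0.319% in ventral mesoderm at stage 27 and 1.39, 1.86 and 2.22% in ventral endoderm. At stage 25 they took 0.0592, 0.349 and 0.104% in ventral mesoderm and 1.22, 0.534 and 0.844% in ventral endoderm. Of the 183, 150 had no read in any ventral mesoderm library of stage 25 and 111 had none in ventral endoderm. By the endoderm genes, both stages of ventral mesoderm lay below ventral endoderm, while by the mesoderm genes the layers separated at stage 27 and not at stage 25. Both lists were chosen at stage 27, and most genes of each list had no read in each ventral group of stage 25. The missing separation by the mesoderm genes there therefore cannot be told apart from low detection. The separation by the endoderm genes at stage 25 rests on the smaller part of that list that was read.

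Far more genes were read in ventral mesoderm at stage 27 than at stage 25. The 3 stage 27 libraries held 1757712, 1568078 and 1418444 reads assigned to genes, and the 3 stage 25 libraries 997134, 1293912 and 1181282. In these reads, 13512, 11039 and 12195 genes were detected (1 read or more) at stage 27, against 4619, 4976 and 2616 genes at stage 25. With every library thinned to 723011 reads, stage 27 libraries had 11560 ± 1103 genes and stage 25 libraries 3902 ± 1213 (mean ± SD, n = 3 each), a ratio of 2.96. The groups did not overlap, and an exact two-sided permutation test gave p = 0.1, which is the lower limit for groups of 3 libraries, and 0.1 again after adjustment over the 3 library measures of this kind. In ventral mesoderm before budding, the 3 stage 24 libraries had 4363, 2700 and 5906 genes at their full reads. The step was not limited to ventral mesoderm: over all 4 regions, the range in thinned libraries was 8214 to 12648 at stage 27, against 2514 to 5615 at stage 25. A smaller number of captured cells and less RNA per cell cannot be told apart in such libraries.

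At stage 25 the reads were also concentrated in fewer genes. The 10 genes with most reads took 14.9, 17.6 and 15.7% of the reads at stage 27, against 22.2, 27.4 and 28.1% at stage 25, a ratio of means of 0.619. The 100 genes with most reads took 30.6, 33.4 and 30.7% at stage 27 and 41.4, 44.4 and 54.1% at stage 25, a ratio of 0.677. Neither measure overlapped between the stages, and each exact permutation test again gave p = 0.1. A single gene without a gar identifier, AMCG00006382, took 4.86, 8.46 and 5.60% of the reads at stage 27 and 10.6, 18.3 and 13.9% at stage 25.

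**Figure D1:**
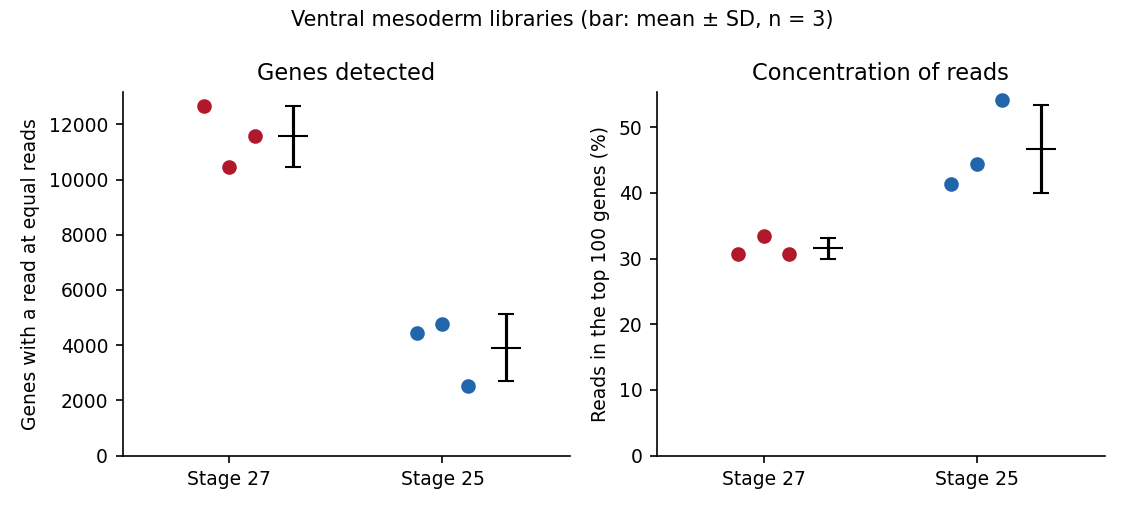
The left panel plots genes with a read in each ventral mesoderm library after thinning to 723011 reads. The right panel plots the percentage of reads taken by the 100 genes with most reads. Points are libraries and bars are means ± SD (n = 3 each). Stage 27 lies above stage 25 in the left panel and below it in the right panel, with no overlap.

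Genes were read in all libraries of a stage more often at stage 27. Of the 14865 genes with a read in any stage 27 library, 9664 (65.0%) were read in all 3, 2553 in 2 and 2648 in 1. Of the 7434 genes with a read at stage 25, 1312 (17.6%) were read in all 3, 2153 in 2 and 3969 (53.4%) in 1. The genes read in 1 library only differed in level too. At stage 27 their median was 2.28 CPM (read counts relative to the library's total, on the usual CPM scale) and 3 of them reached 100 CPM. At stage 25 their median was 17.8 CPM, 788 of them (19.9%) reached 100 CPM, and the highest stood at 14988 CPM in its library and at 0 in the other two.

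The genes read at stage 25 were nearly all read at stage 27 as well. Of them, 7287 (98.0%) had a read at stage 27, and these were 49.0% of the genes read at stage 27. The remaining 147 genes were read at stage 25 alone, 2 of them in 2 libraries and 0 in all 3. In the other direction, 7578 genes were read at stage 27 alone, 3264 of them in all 3 libraries. In all 6 libraries 1302 genes were read. The 2 genes read in 2 stage 25 libraries and in no stage 27 library were AMCG00004938 and AMCG00019571, named after their values were seen, and neither passed the test described below.

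A missing read at stage 25 reached genes that were well read at stage 27. Of 6472 genes with a mean of 10 to 100 CPM at stage 27, 2334 (36.1%) had no read at stage 25. Of 2902 genes in the same range at stage 25, 31 (1.07%) had no read at stage 27. Between 100 and 1000 CPM the shares were 5.14% of 1847 genes set by their stage 27 level and 0.307% of 1628 genes set by their stage 25 level. At 1000 CPM and above, 0 of 96 and 0 of 115 genes were without a read at the other stage. Presence in all 3 libraries differed in the same direction. Of the genes at 10 to 100 CPM at stage 27, 5.47% were read in all 3 stage 25 libraries, and of the genes at that level at stage 25, 90.0% were read in all 3 stage 27 libraries.

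**Figure D2:**
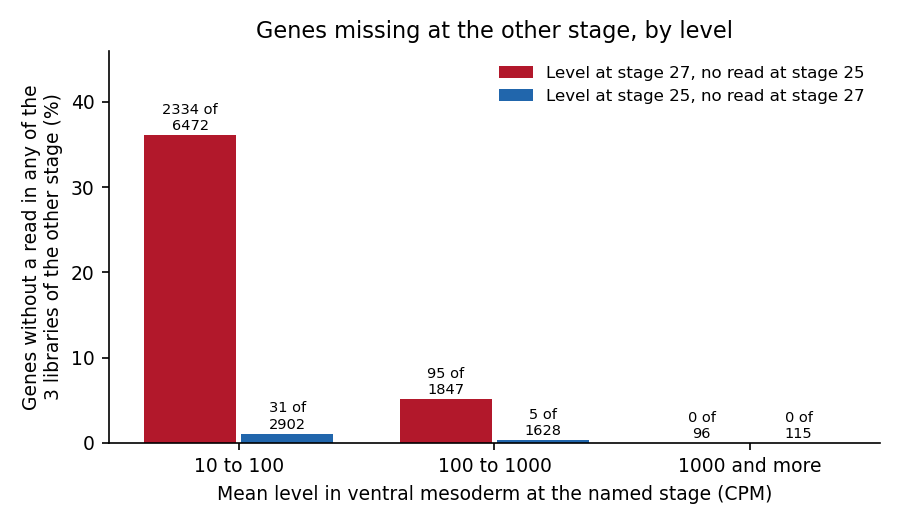
Bars give the percentage of genes without a read in any of the 3 ventral mesoderm libraries of the other stage, by mean level in CPM at the named stage. Of genes at 10 to 100 CPM, 36.1% of those at stage 27 lacked a read at stage 25 and 1.07% of those at stage 25 lacked one at stage 27.

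The libraries of stage 25 also differed more among themselves. Across the tested genes, Pearson's r of the log2 CPM was 0.769 to 0.817 between stage 27 libraries, 0.381 to 0.460 between stage 25 libraries and 0.422 to 0.558 between the stages. These values are descriptions across genes, which are not independent, and the libraries differ in how many genes they hold. Among the 1302 genes read in all 6 libraries, the median SD over 3 libraries was 0.469 on the log2 scale at stage 27 and 1.74 at stage 25. The SD was larger at stage 25 in 1200 of them (92.2%).

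Each gene was then tested for a difference between the stages on the deposited log2 CPM scale, in a model over the 24 libraries of stages 25 and 27 (limma, Benjamini-Hochberg adjusted p under 0.05). Of 13780 genes tested, 1447 (10.5%) differed, and 1442 (10.5%) were higher at stage 27. The other 5 (0.0363%) were lower. At an unadjusted p under 0.05 there were 4423 genes. The model takes 1 spread for all groups, while the spread differed between the stages as given above. On simulated data whose groups differed in means and in spread, it made more false calls than its nominal rate allows. No simulation changed the spread alone, so these false calls cannot be assigned to the spread. The median log2 difference over all tested genes was 1.70, so a positive difference was the ordinary case: in 5219 genes (37.9%) every stage 27 library lay above every stage 25 library in CPM, and in 50 (0.363%) every one lay below. Scalings that moved this median moved the count. With each library centred on genes read in all 24 libraries the median was 1.27 and 362 genes differed, 357 higher and 5 lower. After quantile normalization the median was -0.12 and 64 genes differed, 49 higher and 15 lower.

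The count also depended on single libraries. It was 521, 809 and 618 genes without stage 27 replicate 1, 2 and 3 in turn, and 661, 723 and 333 without stage 25 replicate 1, 2 and 3. With the number of genes read per library as a covariate, 0 genes passed in limma and 870 had an unadjusted p under 0.05. That number and the stage run together, since the 2 stages do not overlap in it.

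**Figure D3:**
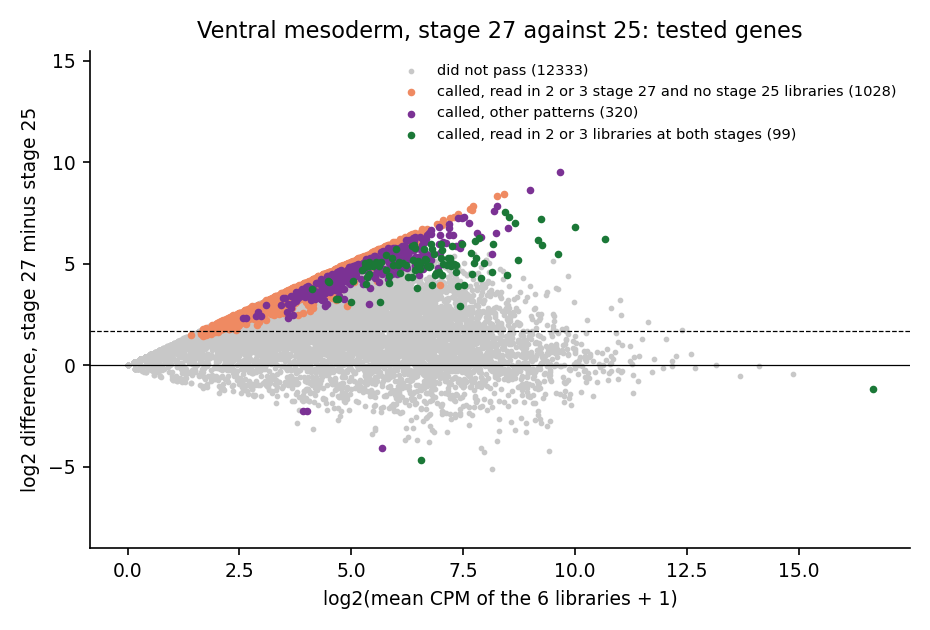
Each point is a tested gene, with the log2 of its mean CPM over the 6 ventral mesoderm libraries plus 1 on the horizontal axis and the log2 difference of stage 27 minus stage 25 on the vertical axis. Coloured points are the 1447 genes called, by the libraries they were read in. The cloud lies above 0, with a median of 1.70.

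Genes without any stage 25 read made up most of the higher calls. Among tested genes, 4964 were read in at least 2 stage 27 libraries and in 0 stage 25 libraries; 1028 of them (20.7%) were called higher, which is 71.3% of the higher calls, and their median log2 difference was 2.18. With no stage 25 read, their direction was fixed by the rule of the class, and all 4964 differences lay above 0. The shares show where the calls lie and are no evidence of a direction. The size of these differences in log2 is set in part by the prior count added to each value, so it is no fold change. Of the 3442 genes read in at least 2 libraries at both stages, 97 (2.82%) were higher and 2 were lower, with a median log2 difference of 1.46. The other 5372 tested genes, 397 of which had no read in these 6 libraries, held 317 higher (5.90%) and 3 lower calls, and 2 genes read only at stage 25 were not called. The 99 calls among genes read at both stages became 21, 31 and 23 without stage 27 replicate 1, 2 and 3, and 33 without stage 25 replicate 3. By reads, the genes of both stages took 76.2% of the reads at stage 27 and 88.1% at stage 25, and the genes read at stage 27 alone took 9.01% at stage 27.

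The 1302 genes read in all 6 libraries are those for which a level can be set on both sides. Of them 11 (0.845%) were higher and 2 (0.154%) were lower, against 10.5% and 0.0363% of all tested genes. Their median log2 difference was 0.83, with 943 above 0 and 359 below. In 248 of them every stage 27 library lay above every stage 25 library, with a median log2 difference of 2.58, and in 48 every one lay below, with a median of -1.76. These are 19.0% and 3.69% of the 1302 genes, beside 37.9% and 0.363% of all tested genes. A gene can lie below in this way only if all 3 stage 25 libraries held a read. Most such genes, 48 of 50, were therefore among the 1302, and the larger share there follows from that rule. Of the 5219 genes above, 3242 were read in no stage 25 library. The shares are thus set in part by detection, and both medians are of genes chosen for not overlapping.

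Among called genes with no stage 25 read, AMCG00001091 (gar identifier ENSLOCG00000006156) had the largest fitted difference. It stood at 645, 977 and 419 CPM in the stage 27 libraries and at 0 in all 3 stage 25 libraries. Set against a floor of 3 counts over the stage 25 group, the mean was at least 787-fold higher, and the fitted difference was 8.46 (SE 0.99, limma adjusted p = 5.29e-06). That SE draws on all 24 libraries of the fit, and in most of them the gene stood at 0. At the same difference, the limma adjusted p was 0.0109 with only the groups compared and 0.00949 with the 12 mesoderm libraries. The gene was also at 0 in all 3 ventral mesoderm libraries of stage 24, and at 6.87, 27.4 and 0 CPM in dorsal mesoderm of stage 27. The gene therefore stood high in 3 libraries of 9 in ventral mesoderm, those of the outgrowth stage.

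Among genes read at both stages, AMCG00003019 (ENSLOCG00000004193) had the largest difference of those called higher that carry a gar identifier and do not overlap between the stages. It stood at 496, 1972 and 1141 CPM at stage 27 and at 0, 11.6 and 12.7 CPM at stage 25 (ratio of means 149, log2 difference 7.19, SE 1.62, limma adjusted p = 0.0083). The stages did not overlap, yet in the 3 ventral mesoderm libraries of stage 24 it stood at 0, 1023 and 0.616 CPM, so that 1 library before budding lay within the stage 27 range. In dorsal mesoderm it stood at 391, 439.5 and 126 CPM at stage 27 and at 65.5, 23.7 and 322 CPM at stage 25, which overlap.

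The 5 lower genes were few enough to name, though 4 of them were named after their values were seen. AMCG00017659 (ENSLOCG00000010593), the one that the naming rule gives, stood at 10.2, 1.91 and 3.52 CPM at stage 27 and at 218, 258 and 66.9 CPM at stage 25. Its log2 difference was -4.66 (SE 1.07, limma adjusted p = 0.00918) and the stages did not overlap. At stage 24 it stood at 24.9, 0 and 2.46 CPM, so that the 3 stage 25 libraries were the high ones.

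AMCG00001822 (ENSLOCG00000016566) stood at 0.569, 0 and 0 CPM at stage 27 and at 197, 104 and 0 CPM at stage 25 (log2 difference -4.07, SE 0.94, limma adjusted p = 0.010), and lost its call without stage 25 replicate 1, when the difference was -2.80. AMCG00004790 had 1.71, 0 and 0 CPM at stage 27 and 81.2, 6.96 and 0 CPM at stage 25. AMCG00006831 (ENSLOCG00000016839) had 0, 1.28 and 0 CPM at stage 27 and 0, 78.1 and 5.93 CPM at stage 25. In each of these 3 genes the stages overlap at 0 and 1 or 2 stage 25 libraries carry the difference; in limma the adjusted p was 0.0452 for AMCG00004790 and 0.0475 for AMCG00006831. Each of the 2 lost its call in 5 of the 6 fits that left out 1 library: AMCG00004790 kept it without stage 25 replicate 3 alone, and AMCG00006831 without stage 25 replicate 1 alone. Without stage 25 replicate 1 the log2 difference of AMCG00004790 was -0.81, and without stage 25 replicate 2 that of AMCG00006831 was -0.79. AMCG00006382, the gene with most reads, was lower by a log2 difference of -1.18 (SE 0.32, limma adjusted p = 0.0224). After quantile normalization its difference was 0.00. It had the most reads in every ventral mesoderm library of both stages, and that scaling gives the top gene of each library the same value. The 0.00 was therefore fixed in advance and does not show whether its level changed. Its call was also lost without stage 27 replicate 1 or 3 and without stage 25 replicate 2 or 3. The drop was not limited to ventral mesoderm. The log2 stage difference of AMCG00006382 was -1.32 in dorsal mesoderm (limma adjusted p = 0.0114) and -2.03 in ventral endoderm (limma adjusted p = 0.00158). In the direct tests of the stage changes it did not pass against either region (limma adjusted p = 0.993 and 0.705).

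Genes at 100 CPM or more in ventral mesoderm at stage 27 and without a read there at stage 25 numbered 95. Of them 68 (71.6%) carry a gar identifier, against 61.7% of all genes at that level and 59.9% of tested genes. The test called 93 of the 95. They were chosen for that difference, so the count supports nothing. Their median level at stage 27 was 129 CPM and the highest was 680.4 CPM. Elsewhere at stage 27, 86 of the 95 were read in all 3 dorsal mesoderm libraries, 64 in all 3 ventral endoderm libraries and 72 in all 3 dorsal endoderm libraries. Of all 1943 genes at 100 CPM or more in ventral mesoderm of stage 27, 1914, 1768 and 1849 were. In ventral mesoderm of stage 24, 33 of the 95 had no read, against 107 of the 1943. Only 9 of the 95 had no read in any stage 25 library, and 4 had none in any library of stage 24 or 25.

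Those 4 genes were named after their values were seen. AMCG00016914, without a gar identifier, stood at 115, 137 and 151 CPM in ventral mesoderm of stage 27, at least 155-fold over the stage 25 floor, and at 27.5, 60.9 and 15.2 CPM in dorsal mesoderm. AMCG00003886 (ENSLOCG00000016240) stood at 163, 75.3 and 105 CPM, at least 133-fold over the floor, and at 0, 18.5 and 0 CPM in dorsal mesoderm. AMCG00019168 (ENSLOCG00000018128) stood at 168, 96.3 and 54.3 CPM, at least 123-fold over the floor, and at 42.2, 18.5 and 37.3 CPM in dorsal mesoderm. For these 3 genes every ventral library of stage 27 lay above every dorsal mesoderm library of that stage. They were chosen for a high level in the ventral libraries. In the direct test of the stage changes against dorsal mesoderm, described below, none of the 3 passed. The limma adjusted p was 0.858 for AMCG00016914, 0.405 for AMCG00003886 and 0.911 for AMCG00019168. AMCG00005192 (ENSLOCG00000007218) did not share this, with 77.4, 360.3 and 129 CPM in ventral and 377, 219 and 141 CPM in dorsal mesoderm. The floor over the stage 25 group covers counting error only, since amplified reads are not independent molecules.

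**Figure D4:**
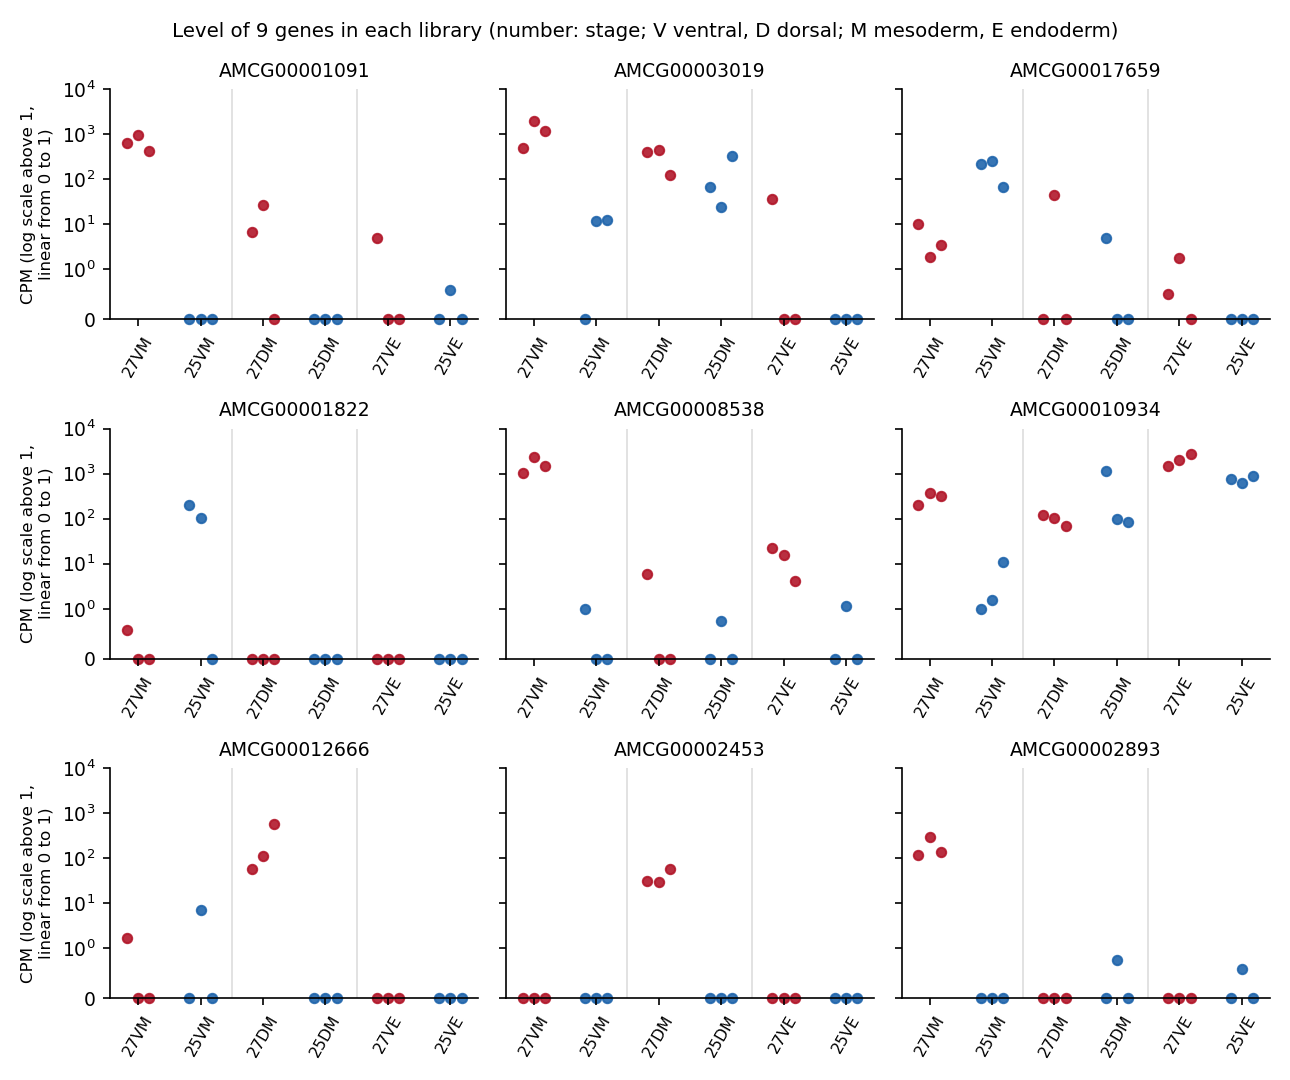
Each panel plots 1 gene, with the CPM of every library on an axis that is logarithmic above 1 and linear from 0 to 1, and groups side by side in ventral mesoderm, dorsal mesoderm and ventral endoderm with stage 27 left of stage 25. AMCG00001091 stands at 419 to 977 CPM in ventral mesoderm of stage 27 and at 0 in all 3 libraries of stage 25.

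In each other region of stage 27, most of the 1442 higher genes were read in all 3 libraries, as were most tested genes. At stage 27, 1403 (97.3%) were read in all 3 ventral mesoderm libraries and 974 (67.5%) in all 3 of dorsal mesoderm. In endoderm of that stage, 778 (54.0%) were read in all 3 ventral libraries and 780 (54.1%) in all 3 dorsal ones. Over all tested genes these shares were 70.0%, 53.5%, 55.1% and 54.3%, so that those in endoderm were near the share of any tested gene. No read was found for 4.44% of the 1442 in dorsal mesoderm, 10.1% in ventral endoderm and 8.95% in dorsal endoderm. For tested genes this was 7.51%, 7.84% and 6.31%. The 1442 genes took 11.3 ± 1.46% of the reads in ventral mesoderm of stage 27, 9.39 ± 0.159% in dorsal mesoderm, 8.18 ± 1.35% in ventral endoderm and 7.74 ± 0.286% in dorsal endoderm (SD, n = 3 each). In the stage 25 libraries that did not choose them they took 4.16 ± 0.933% in dorsal mesoderm, 3.98 ± 0.527% in ventral endoderm and 4.17 ± 0.0249% in dorsal endoderm. The 1442 genes were chosen by ventral mesoderm of stages 27 and 25. The 1403 genes and 11.3% there at stage 27, and the 0.280 ± 0.185% at stage 25, therefore support nothing. In ventral mesoderm of stage 24 they took 5.46 ± 0.911%, and 645 of them (44.7%) had no read there, against 45.2% of tested genes. Their mean levels at stage 27 ran from 3.31 to 3092 CPM with a median of 41.4 CPM, and 885 (61.4%) carry a gar identifier.

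The same stage test in the other regions gave 991 higher genes in dorsal mesoderm (7.19%), 511 in ventral endoderm (3.71%) and 798 in dorsal endoderm (5.79%), with libraries of their own. Of the 1442 genes, 321 were also called higher in dorsal mesoderm (22.3% of them, and 32.4% of the dorsal mesoderm calls), 176 in dorsal endoderm (12.2%, and 22.1%) and 110 in ventral endoderm (7.63%, and 21.5%). In 0 other regions 941 (65.3%) were called, in 1 region 410, in 2 regions 76 and in all 3 regions 15. A call in 1 region and not in another does not show a difference between them. The difference of stage 27 minus stage 25 was above 0 in dorsal mesoderm for 1324 (91.8%, against 82.5% of tested genes), in ventral endoderm for 1228 (85.2%, against 82.7%) and in dorsal endoderm for 1320 (91.5%, against 87.9%). Their median log2 difference was 2.29 in dorsal mesoderm, 1.51 in ventral endoderm and 1.79 in dorsal endoderm, beside 1.30, 1.30 and 1.43 over all tested genes. The 1442 genes had a higher median level in ventral mesoderm of stage 27 than tested genes, 41.4 against 17.0 CPM. No genes of a like level were set beside them, so level may account for part of these gaps, which was not tested.

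The stage comparison was repeated with the stage 27 libraries thinned to the median gene number of stage 25. They reached it with 14816, 18765 and 16147 reads, or 0.843 to 1.20% of their own, and then held 4605, 4652 and 4625 genes, against 4619, 4976 and 2616 at stage 25. The match is to the median alone, and the third stage 25 library stayed well below it. The stage 25 libraries kept all their reads. With so few reads left at stage 27, genes at the level of the 1442 higher genes (median 41.4 CPM with all reads) kept few or none. A call lost in this comparison, here or below, therefore cannot be told apart from a loss of reads. The prior count kept its value of 1.83 CPM, while 1 read of a thinned library stands for far more CPM than before. Differences after thinning are therefore on another scale than those with all reads. A larger difference or a smaller adjusted p after thinning is no added support. After thinning, 7652 genes were read in any thinned stage 27 library, 2058 of them (26.9%) in all 3 and 3480 (45.5%) in 1. At stage 25 the shares, given above, were 17.6% in all 3 and 53.4% in 1. These shares are no comparison at a like number of genes, since the library with 2616 genes enters those of stage 25.

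In that comparison limma called 50 of the 13780 genes (0.363%), 45 higher and 5 lower at stage 27, with a median log2 difference of 0.00 over all tested genes. A gene without a read in either group has a difference of exactly 0, so this median does not show that the shift was removed. Of these 50, 46 were also among the 1447 called with all reads, and 26 carry a gar identifier. Of the 45 higher genes 26 had no stage 25 read, 6 were read at both stages and 13 fell in neither class. Their median level at stage 27 with all reads was 134 CPM. All 3 dorsal mesoderm libraries of stage 27 held 37 of the 45, all 3 ventral endoderm libraries 15, and all 3 dorsal endoderm libraries 21. Over all tested genes, with a lower median of 17.0 CPM, these shares were 53.5%, 55.1% and 54.3%. Of the 1943 genes at 100 CPM or more in ventral mesoderm of stage 27, nearer in level to the 45, it was 1914, 1768 and 1849. In ventral mesoderm of stage 24, 25 of the 45 had no read, against 45.2% of tested genes and 107 of the 1943. AMCG00001091, AMCG00017659, AMCG00005192, AMCG00016914 and AMCG00019168 were among the 50. AMCG00003019 was not, at a log2 difference of 7.15 (limma adjusted p = 0.166). Nor were AMCG00003886 at 4.23 (adjusted p = 0.0889), AMCG00001822 at -4.20 (0.0889), AMCG00004790 at -2.59 (0.212), AMCG00006831 at -2.51 (0.227) and AMCG00006382 at -1.19 (0.800).

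**Figure D5:**
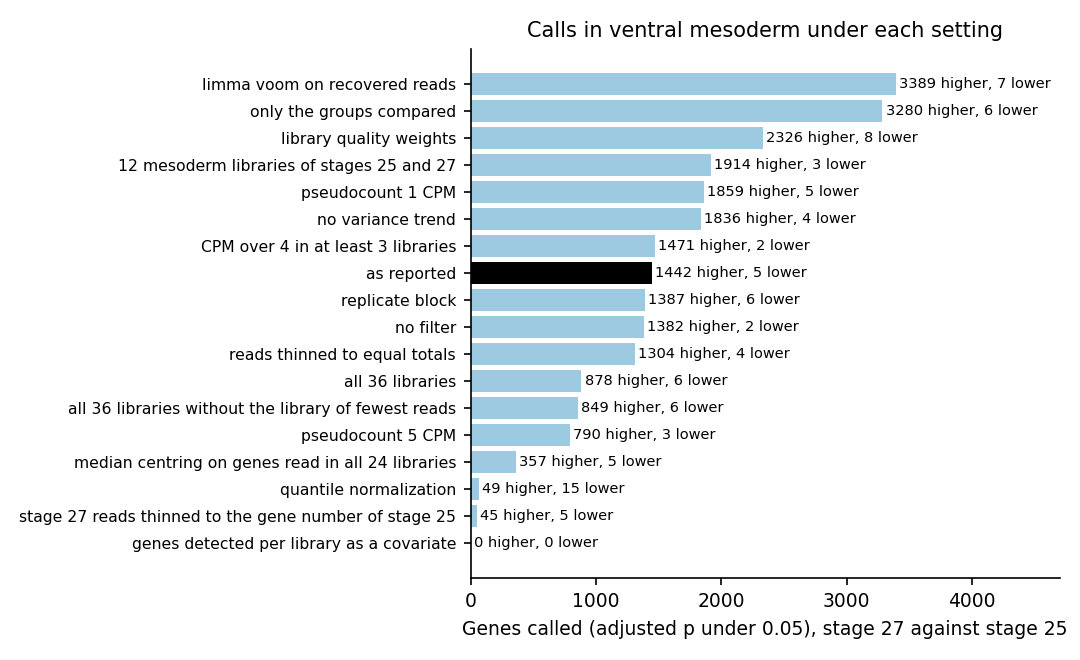
Bars give the number of genes called between stage 27 and stage 25 in ventral mesoderm under each setting. The count is 1447 as reported, 3396 with limma's voom on recovered reads, 64 after quantile normalization, 50 with stage 27 thinned to the median gene number of stage 25, and 0 with gene number as a covariate.

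Whether the stage change of ventral mesoderm differed from that of another region was tested directly. Against dorsal mesoderm, the difference of the stage changes passed in 9 of 13780 genes (0.0653%; limma, adjusted p under 0.05), 6 positive and 3 negative, with 851 at an unadjusted p under 0.05. Fitted with the 4 groups compared alone, or with the 12 mesoderm libraries of these stages, 0 genes passed. With stage 27 thinned to the median gene number of stage 25 in each region, 13 genes passed, 6 positive and 7 negative, and 2 of them were among the 9. The count was 19 and 23 without ventral stage 27 replicate 1 and 3, 3 without ventral stage 25 replicate 1 or 2, and 20 and 28 without dorsal stage 27 replicate 2 and 3, the last with 7 positive and 21 negative.

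AMCG00008538 (ENSLOCG00000008170) had the largest positive difference of the 9 genes, 8.98 (SE 1.48, limma adjusted p = 0.00614). In ventral mesoderm it stood at 1046, 2379 and 1474 CPM at stage 27 and at 1.00, 0 and 0 CPM at stage 25. In dorsal mesoderm it stood at 5.89, 0 and 0 CPM at stage 27 and at 0, 0.765 and 0 CPM at stage 25. Ventral mesoderm of stage 27 was the high group by a wide margin, and ventral endoderm of that stage came next with 22.5, 15.9 and 4.15 CPM. No ventral mesoderm library of stage 24 held a read of it. Against ventral endoderm its difference of stage changes was 6.84 and did not pass (limma adjusted p = 0.0922). With stage 27 thinned, its difference against dorsal mesoderm was 9.56 (limma adjusted p = 1.01e-05), which is no added support, for the reason given above.

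AMCG00010934 (ENSLOCG00000005573) came next among the positive ones, with 7.03 (SE 1.41, limma adjusted p = 0.0456). It stood at 202, 364 and 324 CPM in ventral mesoderm of stage 27 and at 1.00, 1.55 and 11.0 CPM at stage 25, against 119, 104 and 67.8 CPM in dorsal mesoderm of stage 27 and 1142, 100.2 and 85.3 CPM at stage 25. Its levels were higher in ventral endoderm, with 1441, 1991 and 2729 CPM at stage 27 and 752, 618 and 876 CPM at stage 25. In ventral mesoderm of stage 24 it stood at 0, 306 and 833 CPM, so that the 3 stage 25 libraries and 1 stage 24 library were low. Its call was lost without any 1 of 6 libraries: ventral stage 27 replicate 2 or 3, ventral stage 25 replicate 1 or 2, dorsal stage 27 replicate 1 or dorsal stage 25 replicate 1. It was also lost with stage 27 thinned, at a difference of 8.20 (limma adjusted p = 0.242).

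The 2 named negative differences came from dorsal mesoderm. AMCG00012666 (ENSLOCG00000015474) stood at 1.71, 0 and 0 CPM in ventral mesoderm of stage 27 and 0, 6.96 and 0 CPM at stage 25, against 57.9, 112 and 559 CPM in dorsal mesoderm of stage 27 and 0 in all 3 at stage 25 (difference -6.85, SE 1.38, limma adjusted p = 0.0456). Its call was lost without ventral stage 27 replicate 2 or 3, and without any 1 of the 6 mesoderm libraries of stage 25, and with stage 27 thinned, at -8.02 (limma adjusted p = 0.261). AMCG00002453 (ENSLOCG00000004780) had no read in any ventral mesoderm library of stages 27 and 25, and stood at 31.4, 29.1 and 58.1 CPM in dorsal mesoderm of stage 27 and 0 at stage 25 (difference -4.43, SE 0.77, limma adjusted p = 0.0117). Its call was lost without ventral stage 25 replicate 1 or 2, at an unchanged difference of -4.43, and with stage 27 thinned, at -4.10 (limma adjusted p = 0.602).

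Against ventral endoderm, the difference of the stage changes passed in 6 of 13780 genes (0.0435%), all positive, with 1030 at an unadjusted p under 0.05. This comparison and the one against dorsal mesoderm share the 6 ventral mesoderm libraries. With the 4 groups compared alone 0 genes passed in limma, and 1131 had an unadjusted p under 0.05. With stage 27 thinned 16 passed, 12 positive and 4 negative, and 2 of them were among the 6. Without ventral mesoderm stage 27 replicate 1, 2 and 3 the count was 13, 23 and 23, without ventral endoderm stage 27 replicate 1 it was 15, and without ventral endoderm stage 25 replicate 2 it was 11.

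AMCG00001091 had the larger of the 2 named differences, 7.96 (SE 1.40, limma adjusted p = 0.0100), and stood at 5.00, 0 and 0 CPM in ventral endoderm of stage 27 and 0, 0.589 and 0 CPM at stage 25. Against dorsal mesoderm its difference of stage changes was 6.38 and did not pass (limma adjusted p = 0.0969). With stage 27 thinned, its difference against ventral endoderm was 8.53 (limma adjusted p = 0.0163). AMCG00002893 (ENSLOCG00000005811) passed against both regions. It stood at 117, 302 and 138 CPM in ventral mesoderm of stage 27 and at 0 in all 3 libraries of stage 25, at least 215-fold over the floor. In dorsal mesoderm and ventral endoderm of stage 27 all 6 libraries stood at 0, and at stage 25 dorsal mesoderm had 0, 0.765 and 0 CPM and ventral endoderm 0, 0.589 and 0 CPM. Its difference of stage changes was 6.72 against dorsal mesoderm and 6.68 against ventral endoderm (limma adjusted p = 0.000752 for each). With stage 27 thinned, the difference against ventral endoderm was 4.79 and did not pass (limma adjusted p = 0.612). Among the 24 libraries of stages 25 and 27 it exceeded 3 CPM in the 3 of ventral mesoderm at stage 27 and in no other.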

How the data were processed

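RNA was sequenced from laser-captured foregut regions. Per the submitters' processing notes, Trimmomatic 0.38, STAR 2.6, edgeR (version not given) and R 3.6.0 were used; the genome build and the counting tool are not given in the sources used here. The authors deposited log2 CPM. Its values carry a prior count, and reads and library totals were recovered from them: below 200 reads all were whole within 0.02. CPM values in the text were computed from those reads and totals. The 24 libraries of stages 25 and 27 hold 723011 to 1998280 reads.

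The log2 CPM of these 24 libraries (8 groups of 3) were fitted with limma 3.58.1 (trended) in R 4.3.3. Genes over 1 CPM in at least 3 libraries were tested, 13780 of 21948. Stage 24 was left out of the fit because the spread differs between stages and 1 of its libraries, from ventral endoderm, held only 3040 reads. On simulated data the test held its error rate where groups shared means and spread, and made more false calls than its nominal rate where they differed.

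Members, lists and tests were chosen with earlier results of these data known. The gene lists and markers chosen as symbols matched 0 identifiers and were not used. The naming rule took the called gene with a gar identifier and without overlap of largest difference, each way, among genes read at both stages and among genes read at 1 stage, and the first 2 each way for each difference of stage changes. Floors are 3 counts over a group.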

Additional observations from a re-analysis of the deposited data

Results flagged for a closer look

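These results are given because the stage change of ventral mesoderm differed from that of another region in the test of that difference (limma, adjusted p under 0.05). Against dorsal mesoderm 9 genes did so. Of the named ones, AMCG00008538 had a log2 difference of stage changes of 8.98, AMCG00010934 of 7.03 and AMCG00002893 of 6.72. AMCG00012666 had -6.85 and AMCG00002453 had -4.43. Against ventral endoderm 6 genes did so, among them AMCG00001091 with 7.96 and AMCG00002893 with 6.68. With only the groups compared in the fit the differences were the same and none of these named genes passed.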

How the results depend on the processing

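No named gene changed sign in any setting. AMCG00006382 went to 0.00 under quantile normalization, as any gene with most reads in every library compared must. There the median over tested genes turned to -0.12 for the stage difference, to -0.05 (from 0.29) against dorsal mesoderm and to -0.05 (from 0.33) against ventral endoderm, where it was -0.06 with the covariate. The count of 1447 genes became 3396 with voom, 3286 with only the groups compared, 2334 with quality weights, 884 with all 36 libraries, 855 without the shallowest of them, 793 with a pseudocount of 5 CPM, 362 with centring, 64 with quantile normalization, 50 at the median gene number and 0 with gene number as a covariate, and 333 to 809 with 1 library left out. The 99 calls among genes read at both stages became 262 with voom, 215 with the groups compared, 227 with weights, 171 without a variance trend, 27 and 31 with the 36-library fits, 24 with centring, 13 with quantile normalization, 10 at the median gene number, 0 with the covariate, and 21 to 96 with 1 library left out. Against dorsal mesoderm the 9 genes became 34 without a filter, 14 with 5 CPM, 25 and 24 with the 36-library fits, 0 with the groups compared or mesoderm alone (840 at an unadjusted p under 0.05 with the groups compared), and 3 to 28 with 1 library left out. Against ventral endoderm the 6 became 33 without a filter, 11 with 5 CPM, 39 and 33 with the 36-library fits, 54 with voom, 32 without a trend, 16 at the median gene number, 0 with the groups compared, and 5 to 23 with 1 left out. With 1 library left out, the ratio of genes detected was 2.51 to 3.33, that of the top 10 share 0.578 to 0.647 (0.772 without AMCG00006382), and that of the top 100 share 0.641 to 0.736. The causes were not tested.

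Deviations of same-numbered libraries from their group means correlated at 0.007, 0.026 and -0.003 between stages 27 and 25 of ventral mesoderm. Sections can be shared only within a stage. With dorsal mesoderm the values were -0.011, -0.019 and 0.037 at stage 27 and 0.005, 0.007 and 0.020 at stage 25. With ventral endoderm they were 0.061, 0.022 and 0.027 at stage 27 and 0.012, -0.011 and 0.028 at stage 25. With the replicate block 1393 genes were called, 5 differed against dorsal mesoderm, also with the block within stage, and 6 against ventral endoderm. Both blocks ended the calls of AMCG00010934 and AMCG00012666 at unchanged differences (limma adjusted p = 0.0729 and 0.0968 for each gene).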
